A study of Mus musculus with 9 samples.

Results

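The miR-200 family consists of 5 miRNAs, mmu-miR-200a, mmu-miR-200b, mmu-miR-200c, mmu-miR-141 and mmu-miR-429, which were taken by name from the 1164 miRNAs of the deposited count table and were all present in it. They come from 2 loci in the mouse genome, one holding miR-200c and miR-141 and the other miR-200b, miR-200a and miR-429. Small RNA was sequenced from small extracellular vesicle (smEV) pellets that immortalised mouse kidney medullary (KM) cells released during 24 h without serum. One KM line was WT, one was Bbs4-/- and one was Bbs6-/-, and each gave 3 libraries from independent smEV pellets. Bbs4 is a subunit of the BBSome, a complex that carries cargo to and from the primary cilium, and Bbs6 is a chaperonin-like protein needed for BBSome assembly. With a single line per genotype, a difference between genotypes and a difference between lines cannot be told apart. Libraries carry the numbers of the deposited columns, where Bbs4-/- has replicates 1, 2 and 3, Bbs6-/- has 2, 3 and 4, and WT has 1, 3 and 4.

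The miR-200 family is known as a hallmark of epithelial cells, the kidney tubule among them. Its members bind the mRNAs of Zeb1 and Zeb2, repressors of E-cadherin, and through them hold back epithelial-mesenchymal transition (EMT), while the Zeb proteins in turn repress both miR-200 loci. A miRNA finds its targets chiefly through its seed, bases 2 to 8 from the 5′ end, and the family falls into seed groups that cut across the loci.

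The mature 3p sequences of RefSeq (GRCm38.p6) are shown because they define which members can share targets, with the seed in capitals. The table names no arm, so which arm was counted is not given in the sources used here. The seed AAUACUG is shared by miR-200c, miR-200b and miR-429.
mmu-miR-200c-3p: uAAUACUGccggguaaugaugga
mmu-miR-200b-3p: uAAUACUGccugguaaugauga
mmu-miR-429-3p: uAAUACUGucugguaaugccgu
The seed AACACUG is shared by miR-141 and miR-200a.
mmu-miR-141-3p: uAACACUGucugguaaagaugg
mmu-miR-200a-3p: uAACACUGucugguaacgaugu

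Among the 1679 mature mouse miRNAs of the RefSeq table, no other mature sequence had either seed. Each seed is thus supplied by both loci. Over the 22 bases compared, miR-200c and miR-200b differed at 2 positions, G11U and G22A, counted from 1 at the 5′ end with the base of miR-200c first. For miR-141 and miR-200a the differences were A17C and G22U, with the base of miR-141 first. Members of different loci that share a seed can therefore be as little as 2 bases apart, and how many reads were assigned to the wrong member was not tested.

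In GRCm38, the build that the labels name, the hairpins of both loci lie on the minus strand. Mir200c at chr6:124718322-124718390 and Mir141 at chr6:124717914-124717985 lie in an intron of Gm15884, which GENCODE types as antisense. Mir200b at chr4:156055681-156055750 and Mir200a at chr4:156054896-156054985 lie in introns of the protein-coding gene Ttll10 and of the non-coding gene Gm13648. Mir429 at chr4:156053905-156053987 lies in an intron of Ttll10 and in an exon of Gm13648. From the first hairpin to the last, the chromosome 6 locus, of miR-200c and miR-141, spans 477 bp and the chromosome 4 locus, of miR-200b, miR-200a and miR-429, 1846 bp.

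**Figure D1:**
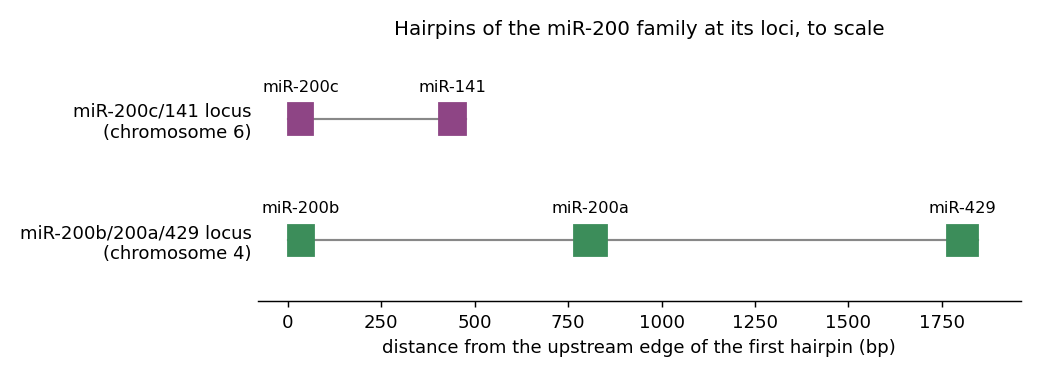
Hairpins of the 5 family members, drawn to scale as boxes along the distance in bp from the upstream edge of the first hairpin of each locus. The chromosome 6 locus spans 477 bp with 2 hairpins and the chromosome 4 locus 1846 bp with 3.

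The mutant libraries held 176935 to 457163 miRNA counts and the WT libraries 64118 to 130905. Levels are CPM, counts scaled to a common library size with edgeR's TMM factors. A count of 0 is taken to allow up to 3 counts, which is 6.98 to 19.0 CPM in the mutant libraries and 19.4 to 36.5 CPM in WT. No library repeated another of its line, and the chi-square over its degrees of freedom ran from 13.5, between Bbs6-/- replicates 3 and 4, to 130, between Bbs6-/- replicates 2 and 4. Intervals on counts and shares below cover counting error only. The chromosome 4 locus, part of the family itself, was read as a marker of epithelial cells, an origin that the labels do not give. Its members ranked between 21 and 59 by count in all 9 libraries. Of the markers of other cell types, 7 mesenchymal miRNAs summed to 11 to 67 counts per library, with miR-145a and miR-214 at 0 in all 9, and 5 blood miRNAs to 0 to 11. The single endothelial, liver and neuronal markers had 0 to 22 counts. The 3 muscle miRNAs summed to 127 to 1022 counts (853 to 2379 CPM), nearly all of them from miR-206, which was present in every library at about the level of miR-429, while miR-1a had 0 to 9 counts and miR-133a 0 to 2.

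The smEVs of the lines differed at the chromosome 6 locus. Both of its members were higher in Bbs4-/- and in Bbs6-/- smEVs than in WT smEVs, miR-200c by 7.97 and 7.89 on the log2 scale and miR-141 from counts of 0 in WT. None of the 3 members of the chromosome 4 locus was called in either mutant with edgeR or with DESeq2. In Bbs4-/- 0 of 3 had an unadjusted p under 0.05 (edgeR). In Bbs6-/- 3 of 3 did, at 0.0180 for miR-200b, 0.0178 for miR-200a and 0.0497 for miR-429 (edgeR). Many miRNAs outside the family did too, so this count is not read as a result about the locus. In Bbs6-/- 0 of 3 had an adjusted p under 0.1 (edgeR). A call needed 0.1 or less as the adjusted p of edgeR's quasi-likelihood test, over all miRNAs with enough counts, together with a log2 difference of 2 or more either way. In Bbs4-/-, 2 of the 5 members were called, both higher, against 6.17% of the 308 miRNAs tested that were called in either direction and 3.90% that were called higher. In Bbs6-/-, 2 of the 5 were called, both higher, against 4.03% of the 298 tested in either direction and 2.68% higher. The 3 WT libraries serve in both comparisons, which are therefore not independent.

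**Figure D2:**
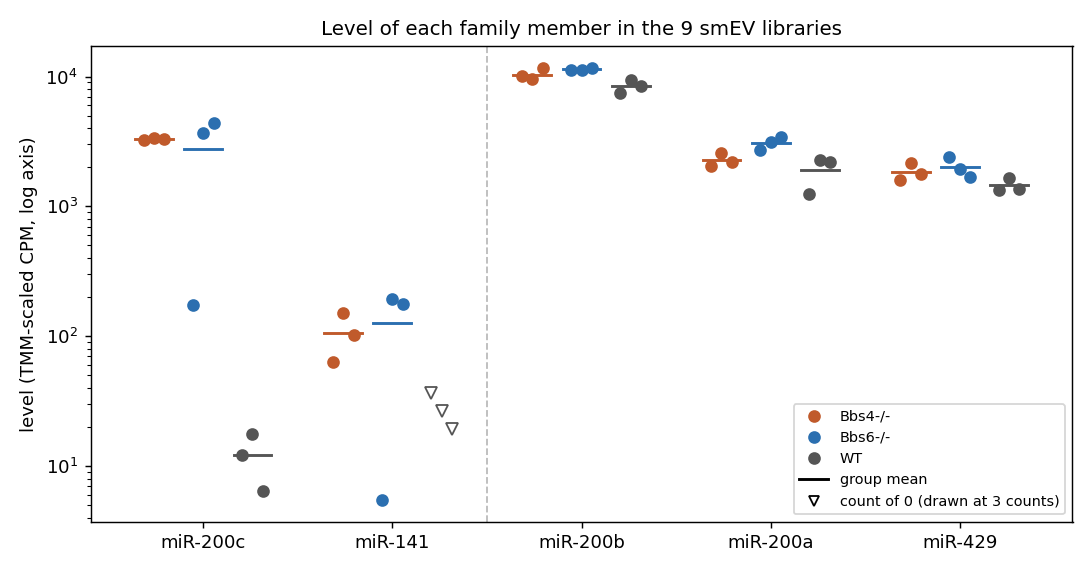
Level of each member in TMM-scaled CPM on a log axis, with a point per library, a line at the group mean of 3 libraries, and open triangles at 3 counts for libraries with a count of 0. To the left of the dashed line, miR-200c was at 3243 to 3373 CPM in Bbs4-/- and at 6.46 to 17.8 CPM in WT, and to the right the groups lie close together.

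miR-200c, the more abundant member of the chromosome 6 locus, had 513, 753 and 1420 counts in the Bbs4-/- libraries. It had 32, 1069 and 1542 counts in Bbs6-/- replicates 2, 3 and 4. In WT the counts were 1, 2 and 1. Every mutant library thus lay above every WT library, and Bbs6-/- replicate 2 lay between the WT libraries and the other 5 mutant libraries. As a level, miR-200c stood at 3243, 3373 and 3306 CPM in Bbs4-/- (3307 ± 64.8 CPM, SD, n = 3). In CPM this was the tightest spread of any member in any genotype relative to its mean. As a share of the library it was not, at 0.318 ± 0.0323% against 0.977 ± 0.0240% for miR-200b in WT (SD, n = 3 each). In Bbs6-/- miR-200c stood at 176, 3653 and 4414 CPM (2748 ± 2260 CPM, SD, n = 3), and in WT at 12.2, 17.8 and 6.46 CPM (12.1 ± 5.67 CPM, SD, n = 3). The fitted log2 fold change against WT was 7.97 in Bbs4-/- (SE 0.37, adjusted p = 1.13e-09, edgeR) and 7.89 in Bbs6-/- (SE 1.28, adjusted p = 0.00486, edgeR). Since WT holds 4 counts in all, the ratio of the pooled shares is only loosely bounded by counting. It was 239 for Bbs4-/- (95% interval 93.1 to 877) and 212 for Bbs6-/- (82.8 to 779). At the mean Bbs4-/- share of the library, the 3 WT libraries would have held 204, 338 and 416 counts of miR-200c.

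miR-141, which shares its seed with miR-200a, was scarce in all 9 libraries. The Bbs4-/- libraries had 10, 34 and 44 counts, at 63.2, 152 and 102 CPM. The Bbs6-/- libraries had 1, 57 and 62 counts, at 5.49, 195 and 177 CPM. All 3 WT libraries had 0, so the Bbs4-/- libraries and Bbs6-/- replicates 3 and 4 were above WT, while the single count of Bbs6-/- replicate 2 is below the 3 counts that a 0 in WT allows. Against 3 counts per WT library, the mean level of miR-141 in Bbs4-/- was at least 3.85-fold higher than in WT (log2 fold change called at an adjusted p of 0.00298, edgeR). For the mean of the 3 Bbs6-/- libraries the bound was at least 4.57-fold (called at an adjusted p of 0.0608, edgeR). The fitted log2 fold changes, 7.35 and 7.69, depend on the prior count that edgeR adds to the 0 of WT and are no measure of size. In Bbs6-/- the call did not survive leaving out replicate 3 or 4 of Bbs6-/- or any of the 3 WT libraries, with adjusted p-values of 0.107 to 0.216 (edgeR), nor an adjusted p threshold of 0.05. Without Bbs6-/- replicate 2 its adjusted p was 0.000670 (edgeR).

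Within the chromosome 6 locus miR-141 was the minor member in every library with counts. It made up 1.91%, 4.32% and 3.01% of the locus in Bbs4-/- replicates 1, 2 and 3, and 3.03%, 5.06% and 3.87% in Bbs6-/- replicates 2, 3 and 4. Pooled over the 3 libraries, its share was 3.17% in Bbs4-/- (exact 95% interval 2.55 to 3.89) and 4.34% in Bbs6-/- (3.61 to 5.17). The single miR-141 count of Bbs6-/- replicate 2 is what its 32 counts of miR-200c would bring at the Bbs4-/- proportion, 1.05 counts. At the same proportion the WT libraries would hold 0.0328 to 0.0655 counts of miR-141, so a WT count of 0 for miR-141 is no lower than the WT counts of miR-200c would give.

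At the chromosome 4 locus, miR-200b was the most abundant member of the family in every library. It had 1583, 2121 and 4965 counts in Bbs4-/-, 2051, 3271 and 4094 in Bbs6-/-, and 609, 1051 and 1300 in WT. As a share of the library this was 0.895%, 0.995% and 1.09% in Bbs4-/-, 1.06%, 1.02% and 0.966% in Bbs6-/-, and 0.9498%, 0.989% and 0.993% in WT. On that scale the 3 groups overlapped, and miR-200b ranked between 21 and 27 among the miRNAs of all 9 libraries. After TMM scaling it stood at 10356 ± 1073 CPM in Bbs4-/-, 11384 ± 292 CPM in Bbs6-/- and 8389 ± 978 CPM in WT (SD, n = 3 each), and both mutants lay above WT without overlap. The fitted log2 fold change was 0.19 in Bbs4-/- (95% interval -0.22 to 0.60, adjusted p = 0.550, edgeR). In Bbs6-/- it was 0.47 (0.10 to 0.84, adjusted p = 0.110, edgeR).

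miR-200a had 325, 576 and 936 counts in Bbs4-/-, 493, 913 and 1193 in Bbs6-/-, and 102, 254 and 339 in WT. Its level was 2055, 2580 and 2179 CPM in Bbs4-/-, 2705, 3120 and 3415 CPM in Bbs6-/-, and 1240, 2262 and 2191 CPM in WT. Bbs4-/- and WT overlapped, WT replicate 1 was the lowest library, and all 3 Bbs6-/- libraries were above the other 6. The log2 fold change was 0.14 in Bbs4-/- (95% interval -0.42 to 0.71, adjusted p = 0.778, edgeR). It was 0.74 in Bbs6-/- (0.16 to 1.32, adjusted p = 0.110, edgeR), the largest value among the chromosome 4 members and still under the fold limit of the call.

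miR-429 had 253, 484 and 764 counts in Bbs4-/-, 439, 567 and 589 in Bbs6-/-, and 110, 187 and 211 in WT. Its level was 1599, 2168 and 1779 CPM in Bbs4-/-, 2409, 1938 and 1686 CPM in Bbs6-/-, and 1337, 1665 and 1364 CPM in WT. Bbs4-/- overlapped WT, while the lowest Bbs6-/- library, replicate 4, lay just above the highest WT library. The log2 fold change was 0.24 in Bbs4-/- (95% interval -0.26 to 0.74, adjusted p = 0.538, edgeR) and 0.49 in Bbs6-/- (0.00 to 0.97, adjusted p = 0.221, edgeR).

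The Bbs6-/- values of the chromosome 4 members depended on the scaling. When libraries were scaled by their total counts alone, the log2 fold changes against WT in Bbs6-/- were 0.06 for miR-200b, 0.32 for miR-200a and 0.09 for miR-429, while the median of all 298 miRNAs tested moved from -0.01 to -0.44. In Bbs4-/- the median moved from -0.02 to -0.20, and miR-200a had a log2 fold change of 0.00 or just under (-0.0013). Without Bbs6-/- replicate 2, miR-200b and miR-200a had log2 fold changes of 0.51 and 0.85 against WT with adjusted p-values of 0.0279 and 0.0316 (edgeR), past the p threshold and still under the fold limit. The 3 upper ends of the intervals in Bbs4-/- were 0.60, 0.71 and 0.74, so a change as large as the fold limit lay outside each of them. In Bbs6-/- they were 0.84, 1.32 and 0.97.

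**Figure D3:**
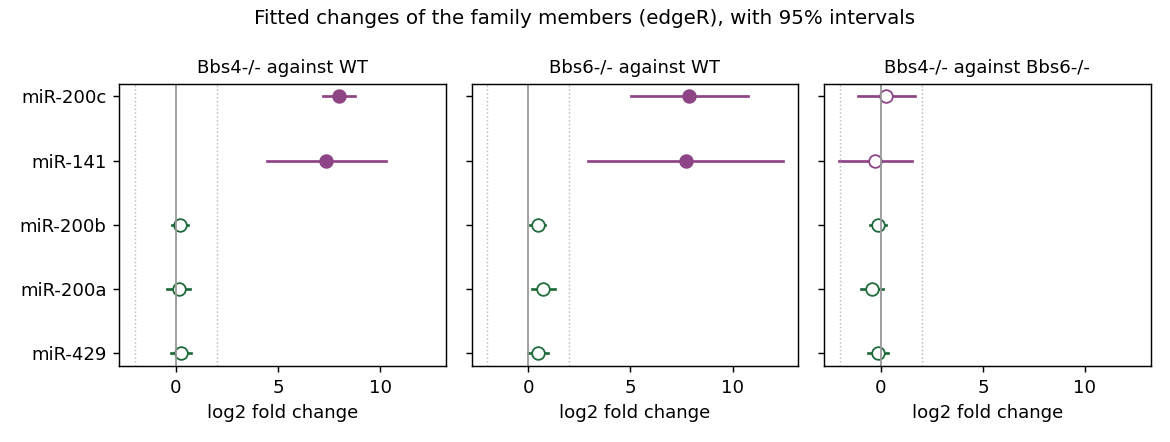
Model-fitted log2 fold change of each member (point) with its 95% interval (line) in the 3 comparisons, filled where called, with dotted lines at the fold limit of 2 either way. The 2 members of the chromosome 6 locus lie between 7.35 and 7.97 against WT in both mutants, where the values of miR-141 depend on the prior count, and the 3 members of the chromosome 4 locus between 0.14 and 0.74.

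The proportions within the chromosome 4 locus lay close together in the 3 genotypes. The share of miR-200b in the locus was 66.7% to 74.5% over the Bbs4-/- libraries, 68.8% to 69.7% over those of Bbs6-/- and 70.3% to 74.2% over WT. For miR-200a the ranges were 14.0% to 18.1%, 16.5% to 20.3% and 12.4% to 18.3%. For miR-429 they were 11.5% to 15.2%, 10.02% to 14.7% and 11.4% to 13.4%. For miR-200a and miR-429 every pair of genotypes overlapped, and for miR-200b every pair but Bbs6-/- and WT.

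The balance of the loci was read within each library, where scaling between libraries has no part. In Bbs4-/- there were 32.4, 35.5 and 28.6 counts of miR-200c for every 100 of miR-200b. In Bbs6-/- replicates 3 and 4 there were 32.7 and 37.7, which fall in or beside that range, and in replicate 2 there were 1.56. The WT libraries had 0.164, 0.190 and 0.0769, each resting on 1 or 2 counts of miR-200c. The mean log2 ratio of miR-200c to miR-200b was -1.64 ± 0.16 in Bbs4-/-, -3.01 ± 2.59 in Bbs6-/- and -9.54 ± 0.70 in WT (SD, n = 3 each). It was higher than in WT by 7.90 in Bbs4-/- and by 6.54 in Bbs6-/-, in 3 of 3 libraries each (exact permutation test, two-sided, p = 0.10 in both, the smallest p that 3 against 3 libraries allow). Between Bbs4-/- and Bbs6-/- the difference was 1.37 (exact permutation test, two-sided, p = 0.90), and it turned to -0.13 without Bbs6-/- replicate 2. Over the 3 genotypes together, the F statistic of the log2 ratio was 22.1 (exact permutation test over 280 partitions, one-sided, p = 0.0321, with 0.00357 the smallest p possible). Adjusted over these 4 tests, the exact p-values were 0.133, 0.133, 0.90 and 0.129. This pair of miRNAs was chosen with earlier results of these data known, so the p-values are no independent support for the difference.

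As a share of all counts of the family, the chromosome 6 locus gave 19.5%, 19.8% and 18.0% in Bbs4-/-. It gave 1.09% in Bbs6-/- replicate 2 (exact 95% interval 0.754 to 1.53), and 19.2% and 21.4% in replicates 3 and 4. In WT it gave 0.122%, 0.134% and 0.0540%, with upper limits of 0.676%, 0.483% and 0.301%. Bbs6-/- replicate 2 was thus above all 3 WT intervals and well below the other mutant libraries.

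The family as a whole took 1.52% to 1.86% of all counts of a Bbs4-/- library, 1.57% to 1.83% of a Bbs6-/- library and 1.28% to 1.41% of a WT library, without overlap between either mutant and WT. The chromosome 4 locus alone made up 1.22% to 1.49%, 1.39% to 1.55% and 1.28% to 1.41%, and its Bbs4-/- libraries overlapped those of WT. In smEVs pooled from many cells, fewer vesicles that carry a miRNA and fewer copies in each vesicle cannot be told apart.

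**Figure D4:**
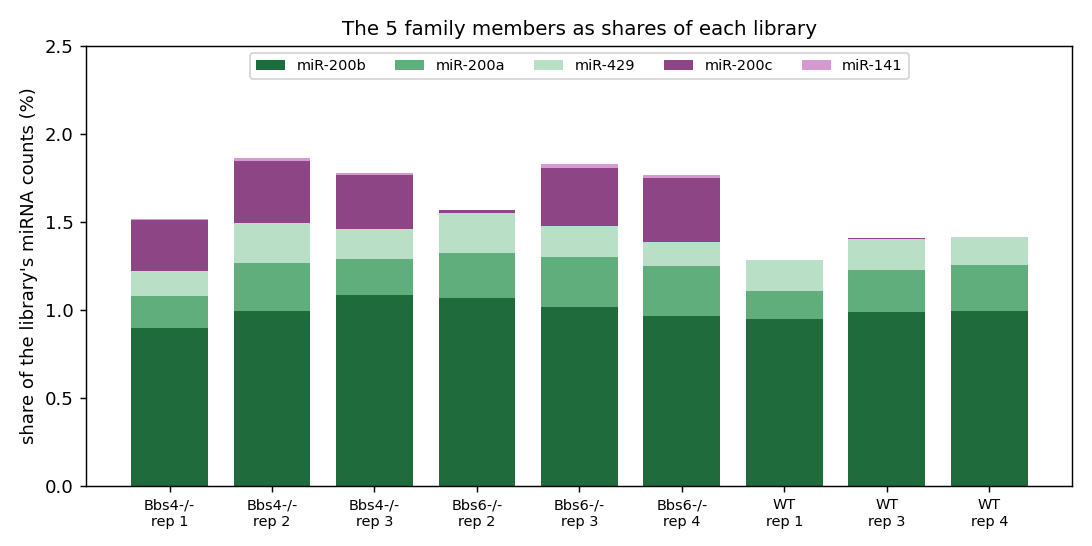
Stacked share of each member in the miRNA counts of each library, in percent, with the chromosome 4 members in greens below and the chromosome 6 members in purples on top. The green part is 1.22% to 1.55% in all 9 libraries, and the purple part is 0.296% to 0.378% in the Bbs4-/- libraries and Bbs6-/- replicates 3 and 4 and at most 0.0171% in the other 4.

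The family can also be sorted by seed. miR-141 and miR-200a, with the seed AACACUG, gave 12.1% to 15.4% of the family's counts over the Bbs4-/- libraries, 16.4% to 16.8% over those of Bbs6-/- and 12.4% to 18.3% over WT. Each mutant overlapped WT, and the Bbs4-/- libraries all lay below those of Bbs6-/-. miR-200c carries the seed of the abundant miR-200b, and miR-141, the member that shares a seed with miR-200a, was at 5.49 to 195 CPM in the mutants.

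Between the mutants, none of the 5 members was called with edgeR or DESeq2, against 3.88% of the 309 miRNAs tested, and 0 of 5 had an unadjusted p under 0.05 (edgeR). The log2 fold change of Bbs4-/- over Bbs6-/- was 0.26 for miR-200c (95% interval -1.14 to 1.66, adjusted p = 0.884, edgeR) and -0.26 for miR-141 (-2.05 to 1.52, adjusted p = 0.902, edgeR), intervals wide enough to reach or nearly reach the fold limit. Without Bbs6-/- replicate 2 the value for miR-200c was -0.35. The chromosome 4 members were bounded more closely. Their log2 fold changes were -0.14 for miR-200b (-0.51 to 0.24), -0.44 for miR-200a (-0.97 to 0.09, adjusted p = 0.414, edgeR) and -0.12 for miR-429 (-0.61 to 0.37). miR-200a was higher in each Bbs6-/- library than in each Bbs4-/- library.

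Within the family, Bbs6-/- replicate 2 stood apart at the chromosome 6 locus. The mean level of replicates 3 and 4 was 23.0 times that of replicate 2 for miR-200c, 33.9 times for miR-141 on a single count, 1.02 times for miR-200b, 1.21 times for miR-200a and 0.752 times for miR-429. Its share of miR-200c in the library, 0.0166% (exact 95% interval 0.0114 to 0.0234), lay above the upper limits of all 3 WT libraries, the highest of which was 0.00869%. That library was also low in miR-203, an epithelial miRNA, with 5 counts against 122 and 159. The summed level of 12 epithelial miRNAs, to which miR-203 adds little, was 141655 CPM, between replicate 3 (132880 CPM) and replicate 4 (164076 CPM). In miR-9 replicate 2 had 10 counts against 136 and 163, and in miR-34c 33 against 204 and 223. In miR-34b it had 28 against 89 and 91, and in miR-101a 4 against 41 and 90. It was not below both in miR-143 (7 against 19 and 7) or miR-122 (6 against 22 and 0). Over all miRNAs reaching 20 counts in a pair, the chi-square over its degrees of freedom was 103 and 130 between replicate 2 and replicates 3 and 4. Between replicates 3 and 4 it was 13.5, so replicate 2 differed well beyond this locus. The summed counts of the 7 mesenchymal and the 5 blood miRNAs in replicate 2 were 20 and 8, against 11 to 40 and 0 to 1 in replicates 3 and 4. The part of any of these in its low miR-200c was not tested.

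Over the 9 libraries, the order of likeness to miR-200c (Pearson r of log2 CPM, 308 other miRNAs reaching 9 counts in total) put miR-141 first, with r = 0.97. miR-200b followed at rank 28 with r = 0.74, miR-200a at rank 66 with r = 0.57 and miR-429 at rank 80 with r = 0.49. The 5 nearest miRNAs outside the family were miR-30d, miR-296, miR-340, miR-298 and let-7d, with r of 0.96 to 0.90. miR-296 and miR-298 resembled miR-141 in having no count in any WT library, with 41 to 285 and 117 to 670 counts in the mutants. In the order of likeness to miR-200b, miR-200a ranked 19 with r = 0.80, miR-200c 29, miR-141 46 and miR-429 49. Here the nearest outside the family were miR-10a, miR-26a, miR-146b, miR-21a and miR-107, with r of 0.95 to 0.90. These correlations describe 9 libraries that share 3 lines and a depth difference between mutants and WT, and the fit of miR-200c and miR-141 rests on the same contrast between lines as the calls.

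Other miRNAs with roles in EMT moved in both directions. Of 8 listed for its restraint, 6 were tested in Bbs4-/-, where miR-34b and miR-34c, targets of p53, were called higher and miR-203 and miR-101a lower, against 6.17% called of all miRNAs tested, with a list median of 0.40 against -0.02 over all. In Bbs6-/-, 7 were tested and miR-34b and miR-34c were called higher, against 4.03% called of all, with a median of 1.22 against -0.01. That median is the value of miR-205 itself, with 0, 6 and 1 counts in Bbs6-/- and 1, 0 and 0 in WT (SE 2.11, adjusted p = 0.786, edgeR). miR-205 was not tested in Bbs4-/-, so the list medians of the mutants cover different sets and are not compared. miR-101a had 16, 33 and 37 counts in Bbs4-/- and 35, 70 and 74 in WT (log2 fold change -2.30, adjusted p = 0.000857, edgeR). Of 6 listed for its promotion, none was called in Bbs4-/- (median -0.56) or in Bbs6-/- (median -0.17) with edgeR, and in each 3 of the 6 had an unadjusted p under 0.05 and also an adjusted p under 0.1, short of the fold limit. Many miRNAs outside the list also passed these looser limits, to which the called shares above do not apply. The 3 of 6 is therefore not read as a result about the list. In each mutant 1 of the 3 list members was higher and 2 were lower than WT. The higher one was miR-21a in both, with log2 fold changes of 0.84 in Bbs4-/- (adjusted p = 0.00968, edgeR) and 1.18 in Bbs6-/- (adjusted p = 0.00201, edgeR). The lower ones, named after their values were seen, were miR-10b in both, at -1.001 (adjusted p = 0.0189, edgeR) and -1.47 (adjusted p = 0.0177, edgeR), miR-221 in Bbs4-/- at -0.71 (adjusted p = 0.0312, edgeR) and miR-222 in Bbs6-/- at -0.81 (adjusted p = 0.0374, edgeR). miR-34b and miR-34c resembled miR-141 in having 0 counts in all WT libraries, with 4 to 19 and 5 to 17 counts in Bbs4-/- and 28 to 91 and 33 to 223 in Bbs6-/-. Their Bbs4-/- calls (adjusted p = 0.0586 and 0.0573, edgeR) were lost in several leave-one-out fits, miR-34b without any library but WT replicate 1 (adjusted p = 0.105 to 0.138, edgeR) and miR-34c without Bbs4-/- replicate 1 or 2 or WT replicate 3 or 4 (adjusted p = 0.104 to 0.157, edgeR). miR-203 had 8, 16 and 31 counts in Bbs4-/- and 38, 21 and 42 in the shallower WT libraries, a log2 fold change of -2.30 (SE 0.46, adjusted p = 0.00341, edgeR), and without WT replicate 1 it was -1.80 and under the fold limit.

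Of 12 other epithelial and renal epithelial miRNAs, 11 were tested in Bbs4-/- and 12 in Bbs6-/-, and miR-203 in Bbs4-/- was the single call, against 6.17% and 4.03% called of all miRNAs tested. Without the fold limit, 3 of 11 had an adjusted p under 0.1 in Bbs4-/- and 1 of 12 in Bbs6-/- (edgeR). So had many miRNAs outside the list, and these counts are not read as a result about it. Beside miR-203 the list members that passed were, named after their values were seen, miR-30a and miR-30d. In Bbs4-/- they were higher by 0.57 (adjusted p = 0.0578, edgeR) and 0.71 (adjusted p = 0.0177, edgeR). In Bbs6-/- miR-30d was higher by 0.69 (adjusted p = 0.0417, edgeR). The list's median log2 fold change was -0.01 in Bbs4-/- and 0.22 in Bbs6-/-. The list's summed level was 146713 to 180456 CPM in Bbs4-/-, 132880 to 164076 CPM in Bbs6-/- and 122762 to 166476 CPM in WT. The 3 genotypes thus overlapped. In the chromosome 4 locus they overlapped as a share of the library but not in summed CPM. That locus summed to 13661 to 15517 CPM in Bbs4-/-, 16237 to 16819 CPM in Bbs6-/- and 9981 to 13287 CPM in WT. Nearly all of the list's sum came from miR-182, miR-30a, miR-183 and miR-30d, at means of 58503, 45966, 38354 and 20443 CPM in Bbs4-/-. The list's sum therefore says little of the other members. Of the 7 mesenchymal miRNAs 4 were tested against WT and none was called in either mutant with edgeR, nor had any an unadjusted p under 0.05. Among single markers of other tissues, miR-122, the liver miRNA, was called lower in Bbs4-/-, with 0, 2 and 0 counts against 7, 3 and 9 in WT (adjusted p = 0.0586, edgeR), a call lost without Bbs4-/- replicate 1 or 3 or WT replicate 1 or 4 (adjusted p = 0.138 to 0.181, edgeR).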

How the data were processed

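Adapter removal by the authors used cutadapt (version 1.9). They then discarded low-quality reads, collapsed reads identical in sequence and unique molecular identifier, trimmed the identifiers, dropped reads under 15 nt and counted reads per miRNA with miRDeep2, keeping the largest count where a miRNA had several entries. The deposited values are these raw counts, and 0 per-sample columns were left unused. The miRBase release is not given in the sources used here. Genotypes came from the sample labels for the Bbs4-/- columns and from the column names for those of Bbs6-/- and WT. The labels number every genotype 1 to 3, unlike the Bbs6-/- and WT columns, which therefore stand for their genotype and for no single labelled sample. p-values measure the spread between smEV pellets of 1 line.

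Counts were analysed with edgeR 4.0.16 in R 4.3.3 (TMM, quasi-likelihood test, Benjamini-Hochberg adjustment over all miRNAs tested). Each mutant was compared with WT on 6 libraries, over miRNAs reaching 6 counts in total, and the mutants with each other on all 9 libraries, over miRNAs reaching 9. The SE of a log2 fold change is its size over the square root of F. CPM values carry TMM factors of all 9 libraries, and log2 CPM a prior count of 2. Shares have exact (Clopper-Pearson) 95% intervals. Sums over members were not tested. Log2 ratios were compared by exact permutation in scipy 1.17.1. Tests were tried on simulated counts first.

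Members, lists and the ratio of miR-200c to miR-200b were chosen with earlier results of these data known. Named are the 5 members, the 5 miRNAs most like miR-200c and miR-200b, called members of the lists, and miR-203. Alternatives were DESeq2 1.42.0, its size factors in edgeR, total counts, no filter, filterByExpr, another set of libraries in the fit, robust spread, an adjusted p under 0.05, no fold limit, the column number as a block, and leaving out each library. Positions are from GENCODE vM21 (GRCm38), sequences from RefSeq. Figures were drawn with matplotlib 3.10.9.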

Additional observations from a re-analysis of the deposited data

Results flagged for a closer look

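Listed miRNAs were named mainly where called in any of the 3 comparisons, the direct contrast between the mutants included. A count among them is therefore no test of the lists. Of the miRNAs named beside the family, 5 were called in the direct contrast, where 3.88% of the 309 miRNAs tested were called. For these 5 the values of the lines against the same WT libraries were thus unequal (edgeR's quasi-likelihood test, log2 fold change of Bbs4-/- over Bbs6-/-). The values were -3.55 for miR-34c (adjusted p = 0.0108, edgeR), -2.61 for miR-34b (adjusted p = 0.0147, edgeR), -2.27 for miR-9 (adjusted p = 0.0998, edgeR), -2.20 for miR-203 (adjusted p = 0.0998, edgeR) and 2.19 for miR-143 (adjusted p = 0.0484, edgeR). The calls of miR-9 and miR-203 were lost when any library other than Bbs6-/- replicate 2 was left out, with adjusted p-values of 0.158 to 0.389 (edgeR), and under 6 other settings. The call of miR-143 was lost without Bbs4-/- replicate 1 or 2, Bbs6-/- replicate 4 or WT replicate 1 (adjusted p = 0.102 to 0.236, edgeR). No miR-200 member was called in the direct contrast.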

How the results depend on the processing

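In Bbs4-/-, 2 members were called under every setting but edgeR's filterByExpr, which left miR-141 untested and 1 member called. In Bbs6-/-, 1 member was called under filterByExpr for the same reason and at an adjusted p under 0.05, and 1 to 2 when a library was left out. Between the mutants no member was called under any setting run. In Bbs4-/- miR-200a changed sign with total counts (-0.0013). Between the mutants miR-200c ranged from -0.35, without Bbs6-/- replicate 2, to 0.78 when a library was left out, and miR-141 from -0.86 to 0.10, with 0.10 and 0.052 without Bbs6-/- replicate 3 or 4 and 1.07 under the replicate block. The log2 ratio of miR-200c to miR-200b stayed 7.50 to 8.16 higher in Bbs4-/- and 5.74 to 8.03 higher in Bbs6-/- than in WT when a library was left out, and between the mutants it ranged from -0.13 to 2.17. With 1 added to each count, the mean log2 ratio was -1.64 in Bbs4-/-, -2.99 in Bbs6-/- and -8.68 in WT, where it was -9.54 without. The size of the difference from WT thus depends on a few WT counts. The F over the 3 genotypes ranged from 13.4 to 282, with an exact permutation p of 0.0107 to 0.0679, the highest without any 1 WT library. This check was chosen after seeing the data. Scaled by total counts, calls against WT split into 12 higher and 11 lower in Bbs4-/- (12 and 7 with TMM) and 8 higher and 9 lower in Bbs6-/- (8 and 4 with TMM).

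Libraries of different genotypes that share a column number had correlations of their deviations from the group means of -0.13 to 0.37. Those with different numbers had -0.29 to 0.15. Whether a shared column number marks a shared preparation was not tested. With that number as a replicate block, the members called stayed 2, 2 and 0. Calls over all miRNAs went from 19 to 21, 12 to 20 and 12 to 14. The log2 ratio differences were 7.43, 8.18 and 2.16, each over only the libraries of a pair of genotypes that share a number. Bbs6-/- replicate 2 shares none with WT, so it has no part in the 8.18, while it enters the 2.16. Between the mutants miR-200c was at 1.74 under the block (adjusted p = 0.000801, edgeR), past the p threshold and short of the fold limit. Among the listed miRNAs, miR-101a (-1.69) and miR-203 (-1.48) in Bbs4-/- and miR-143 (1.98), miR-203 (-1.64) and miR-9 (-1.80) between the mutants came under the fold limit with the block.

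Depth limits the WT values. A count of 0 in WT allows up to 36.5 CPM, so miR-141 below that cannot be told from absence, and its folds are bounds. The 4 WT counts of miR-200c leave its ratio to WT loosely bounded.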
